A study of Arabidopsis thaliana with 6 samples.

Results

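The 10 genes described here encode enzymes of flavonoid and anthocyanin synthesis in *Arabidopsis thaliana*, together with the glutathione transferase TT19 that takes part in moving anthocyanins into the vacuole. They were taken by locus identifier, from a list that uses no measured value, out of 33555 genes listed in each of 6 mRNA sequencing libraries. The libraries are from rosette leaves of soil-grown plants of ecotype Col-0, kept at 22 °C with a 12 h photoperiod, and every sample also carries the genotype label WS, which the sources do not explain. Per the study, plants were first taken out of the soil and kept overnight in humid chambers, and W stands for plants so treated. Plants were sampled before any stress (W, watered control), at a first air-drying of 2 h (S1), or at the third such air-drying (S3), with 22 h of rehydration between stresses. Each condition has 2 libraries from independent biological samples. No watered plants of the age of the S3 plants are among the samples, so repeated stress and the passing of time cannot be told apart in S3, and W libraries were sequenced with longer reads than S1 and S3 libraries, so read length and the stress cannot be told apart in comparisons with W.

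Flavonoids are made from the phenylpropanoid p-coumaroyl-CoA. Chalcone synthase (CHS) joins it to malonyl-CoA units, chalcone isomerase (CHI) closes the ring, and flavanone 3-hydroxylase (F3H) gives dihydroflavonols, which flavonoid 3'-hydroxylase (F3'H) can hydroxylate further. Dihydroflavonols are then used either by flavonol synthase (FLS1) for flavonols, the colourless ultraviolet-absorbing compounds of leaves, or by dihydroflavonol reductase (DFR) and leucoanthocyanidin dioxygenase (LDOX) for the coloured anthocyanins. Sugars are added by UGT79B1, an anthocyanin xylosyltransferase, and by UGT75C1, an anthocyanin 5-glucosyltransferase. CHS, CHI, F3H and FLS1 are known as early genes under flavonol MYB factors, and DFR, LDOX and TT19 as late genes under a MYB, bHLH and WD40 complex.

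Values are FPKM, the fragments of a transcript scaled by its length and by the depth of the library, so that levels can be compared between genes. The libraries were alike in the number of genes above 0, which ran from 21139 to 22457. Of the 5 leaf mesophyll markers, RBCS1A and LHCB1.3, which leaves use in quantity, were listed at 0 in both W libraries, while RBCS1A stood at 9517 and 6085 FPKM at S1, so a listed 0 may be a failed estimate. The other 3, which serve carbon fixation, were called lower in both S1/W and S3/W: RCA by log2 fold changes of -1.55 and -1.07, CA1 by -1.10 and -4.17 and FBA1 by -1.95 and -1.58. CA1 and RBCS1A were also called lower in S3/S1. The 5 leaf epidermis markers, of the tissue in which leaf flavonoids are mostly found, summed to 192 and 275 FPKM in W, 601 and 670 at S1, and 571 and 671 at S3, with 2 called higher (FDH and CER5, both of the cuticle) and 1 lower (PDF2) at S1 against W. Summed root, flower and seed markers were at 0.800 to 1.97 FPKM in W, 1.60 to 4.71 in S1 and 23.9 to 29.3 in S3, of which the root gene PYK10 made up 26.0 and 22.3 FPKM in S3, while the seed storage gene OLEO1 was at 0 in all 6 libraries. The other 5 root, flower and seed markers were at 3.01 FPKM or less in every library. The part of these marker changes in the results below was not tested, and in whole leaves fewer cells of a type and less RNA per cell cannot be told apart.

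The 10 genes lie on chromosomes 3, 4 and 5 of the TAIR10.1 assembly. CHS (AT5G13930) has 2 exons at chr5:4488476-4490264 on the plus strand, and F3H (AT3G51240) has 3 exons at chr3:19025192-19026872, also on the plus strand. FLS1 (AT5G08640) has 3 exons at chr5:2803833-2805606 on the plus strand, and CHI (AT3G55120) has 4 exons at chr3:20430059-20431597 on the minus strand. F3'H (AT5G07990) lies at chr5:2560328-2563137 with 4 exons and TT19 (AT5G17220) at chr5:5658416-5659661 with 3 exons, both on the plus strand. On the minus strand lie DFR (AT5G42800, chr5:17164093-17166032, 6 exons), LDOX (AT4G22880, chr4:12004726-12006209, 2 exons), UGT75C1 (AT4G14090, chr4:8122188-8123835, 1 exon) and UGT79B1 (AT5G54060, chr5:21936746-21938396, 1 exon).

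The 250 bases before the annotated gene start are printed for CHS, F3H, FLS1 and DFR, because the first 3 gave separate patterns across the stresses and DFR competes with FLS1 for substrate. They are written 5′ to 3′ on the strand of the gene, and capitals mark matches on either strand to the G-box, the abscisic acid response core, the drought response core or the MYB element, which are spelled out after the sequences. The windows are chr5:4488226-4488475 for CHS, chr3:19024942-19025191 for F3H, chr5:2803583-2803832 for FLS1 and chr5:17166033-17166282 on the minus strand for DFR, and none of them overlaps another annotated gene.
CHS: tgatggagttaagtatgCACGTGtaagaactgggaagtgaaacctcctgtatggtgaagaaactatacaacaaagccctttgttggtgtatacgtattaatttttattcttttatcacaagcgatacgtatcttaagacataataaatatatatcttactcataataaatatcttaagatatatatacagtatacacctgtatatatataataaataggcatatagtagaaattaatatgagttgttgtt
F3H: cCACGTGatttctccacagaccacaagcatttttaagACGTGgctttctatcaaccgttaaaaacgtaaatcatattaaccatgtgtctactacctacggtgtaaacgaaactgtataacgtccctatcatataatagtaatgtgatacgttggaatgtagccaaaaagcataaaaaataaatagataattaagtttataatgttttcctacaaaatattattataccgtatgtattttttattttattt
FLS1: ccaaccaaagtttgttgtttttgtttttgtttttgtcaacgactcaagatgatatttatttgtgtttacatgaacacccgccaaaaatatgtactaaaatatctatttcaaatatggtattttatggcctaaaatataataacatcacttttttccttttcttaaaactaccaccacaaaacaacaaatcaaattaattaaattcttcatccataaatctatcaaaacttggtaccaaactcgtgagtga
DFR: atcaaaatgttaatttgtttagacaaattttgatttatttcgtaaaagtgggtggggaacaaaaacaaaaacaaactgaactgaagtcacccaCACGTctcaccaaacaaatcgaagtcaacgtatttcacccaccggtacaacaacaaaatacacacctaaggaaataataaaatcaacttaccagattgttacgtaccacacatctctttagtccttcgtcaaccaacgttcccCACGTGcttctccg

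Among the 10 windows, 4 held the G-box CACGTG, the palindromic element bound by bZIP and bHLH factors, and the same was true of 6.49% of 27437 gene windows of this length. It began 233 bases before the gene start in CHS, 249 bases before it in F3H, 14 before it in DFR, and 171 and 128 before it in UGT79B1. The shorter ACGTG, the core of abscisic acid response elements, lies within every G-box on both strands and was found in the same 4 windows, against 22.9% of all. FLS1 and CHI held neither. The drought response core CCGAC occurred in UGT75C1 alone, against 12.0% of all windows, and the MYB element ACCTANC in none of the 10, against 5.55%. Of the wider patterns, not in capitals, the E-box CANNTG, which includes the G-box, occurred in 7 windows (55.3% of all), and ACGT, which lies within ACGTG, in 4 (44.1%). These are matches of letters in a short window, and the members that held a G-box did not share a pattern of transcript level below.

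CHS transcripts fell at the first stress and stayed low at the third. CHS, the entry enzyme of the flavonoid pathway, was at 52.2 and 43.8 FPKM in the W libraries, 10.2 and 15.1 at S1, and 12.3 and 20.1 at S3. All 4 stress libraries lay below both W libraries, and the S1 and S3 libraries overlapped. The mean was 48.0 ± 5.93 (SD, n = 2) in W and 12.7 ± 3.45 in S1, 3.79-fold lower, with a log2 fold change of -1.86 (SE 0.28, adjusted p = 0.00424, limma's moderated test with Benjamini-Hochberg adjustment over 24759 genes). Fold changes and their tests are on log2(FPKM + 1), which understates changes of low genes. A change was called where the adjusted p was at most 0.05, the log2 fold change at least 1 in size, and the mean above 0.374 FPKM, the 25th percentile, in a condition compared. Between S1 and S3 the log2 difference was 0.32 (95% interval -0.41 to 1.05, adjusted p = 0.46), and S3 was lower than W by -1.54 (adjusted p = 0.00715). The S3 against W call was lost without W replicate 1, at -1.42 (adjusted p = 0.0567). Of the 5 mesophyll markers, RCA and FBA1 fell and stayed lower alongside CHS. FBA1 was at 733 and 657 FPKM in W, 194 and 165 at S1, and 216 and 247 at S3. The other markers did not follow CHS. CA1 fell again, from 1334 and 1022 FPKM at S1 to 106 and 181 at S3. RBCS1A and LHCB1.3, listed at 0 in W, were called higher in S1/W. The part of these markers in the CHS values was not tested.

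**Figure D1:**
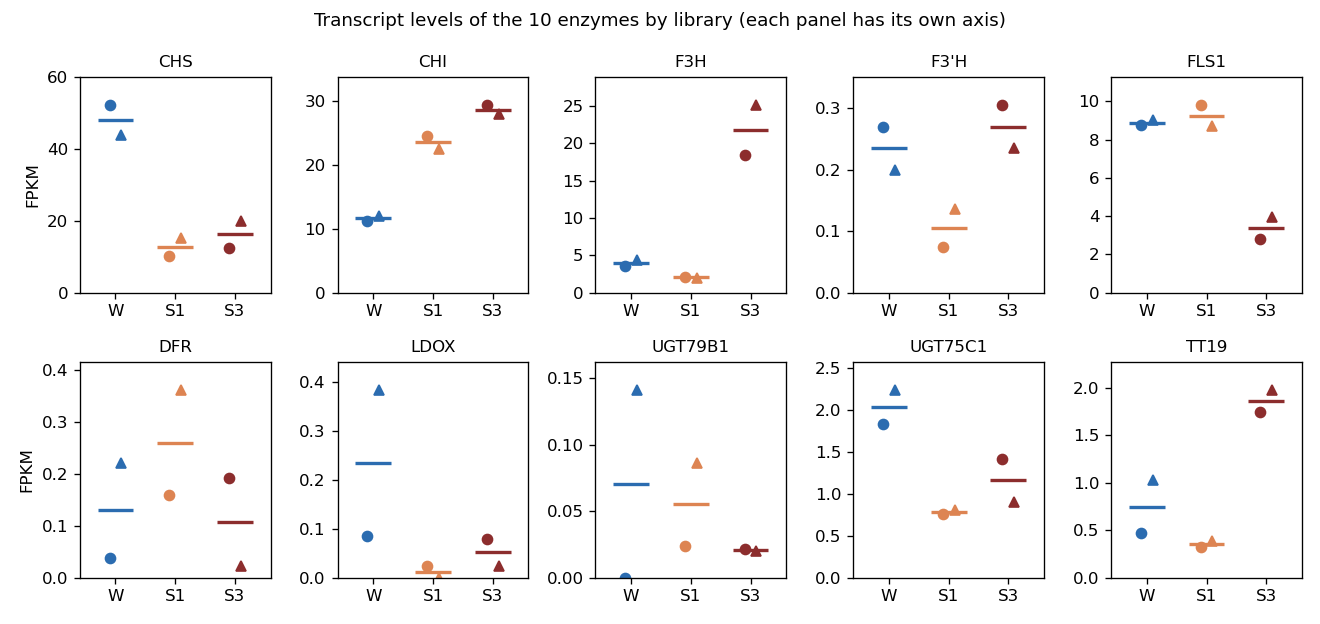
FPKM of the 10 genes in each library, 1 panel per gene with its own axis from 0; points are libraries, bars are means of 2. CHS is high only in W, F3H only in S3, and FLS1 is lower in S3 than in W and S1.

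CHI, the next enzyme, moved the other way. It stood at 11.2 and 12.1 FPKM in W, 24.6 and 22.6 at S1, and 29.4 and 28.0 at S3. The 3 conditions did not overlap. S3 was higher than W by 1.23 on the log2 scale (SE 0.09, adjusted p = 0.00036), a called rise. The difference of S1 from W was 0.96 (SE 0.09, adjusted p = 0.0009), just short of the fold-change criterion, and it was called with the fold taken as the ratio of mean FPKM (2.02-fold), with a pseudocount of 0.1 (1.01) and without W replicate 2 (1.01) or S1 replicate 2 (1.02). S3 minus S1 was 0.27 (95% interval 0.04 to 0.51, adjusted p = 0.0759). The ratio of CHI to CHS FPKM was 0.215 and 0.276 in W, 2.40 and 1.50 at S1, and 2.38 and 1.40 at S3, so that CHS was the higher of both in W and CHI in every stress library.

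F3H, which makes the dihydroflavonols, rose at the third stress. Its FPKM was 3.57 and 4.41 in W, 2.09 and 2.00 at S1, and 18.5 and 25.1 at S3. Both S3 libraries lay above all others, and both S1 libraries below all others. The S3 mean of 21.8 ± 4.71 FPKM was 10.6-fold that in S1, with a log2 fold change of 2.89 (SE 0.19, adjusted p = 0.000994), and 5.46-fold that in W, with 2.18 (adjusted p = 0.000551). The S1 against W difference of -0.71 (95% interval -1.18 to -0.23, adjusted p = 0.0265) missed the fold-change criterion. Both calls of S3 held with each library left out and under every other setting tried. PYK10 rose with F3H from S1 to S3, from 0.953 and 3.15 FPKM to 26.0 and 22.3. From W to S1 they differed in direction, since PYK10 rose from 0.0826 and 0.294 FPKM in W while F3H was lower. The part of PYK10 in the F3H values was not tested.

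The step from CHS to F3H thus changed its proportions. CHS was at 14.6 and 9.92 times the FPKM of F3H in the W libraries, at 4.88 and 7.55 times in S1, and at 0.668 and 0.799 times in S3. The S3 libraries are the ones in which F3H stood above CHS.

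F3'H, a cytochrome P450 that sets the hydroxylation pattern of the B ring, was low in all leaves, from 0.0749 to 0.305 FPKM. At these levels a log2 difference of 1 on the log2(FPKM + 1) scale cannot be reached, so the absence of calls says nothing about F3'H. Both S3 libraries lay above both S1 libraries, with mean FPKM 2.56-fold higher and a difference of 0.20 on the log2 scale (95% interval 0.06 to 0.34, adjusted p = 0.0424).

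FLS1, the main flavonol synthase of leaves, fell at the third stress. It was at 8.76 and 9.01 FPKM in W, 9.79 and 8.71 at S1, and 2.79 and 3.94 at S3. W and S1 overlapped, and both S3 libraries were below all 4 of them. S1 minus W was 0.05 (95% interval -0.37 to 0.47, adjusted p = 0.844). The S3 mean of 3.37 ± 0.814 FPKM was lower than S1 by a log2 fold change of -1.24 (SE 0.17, adjusted p = 0.00597) and lower than W by -1.19 (adjusted p = 0.00263). Without S1 replicate 1 the call against S1 was lost, at -1.17 (adjusted p = 0.054).

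F3H, which supplies the substrate of FLS1, and FLS1 itself moved apart in S3. The ratio of F3H to FLS1 FPKM was 0.407 and 0.490 in W, 0.214 and 0.230 at S1, and 6.61 and 6.37 at S3.

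The late enzymes that lead to anthocyanins were near the lower limit of these libraries. DFR was at 0.0383 and 0.221 FPKM in W, 0.159 and 0.361 at S1, and 0.192 and 0.0222 at S3. LDOX ran from 0 to 0.384 FPKM and UGT79B1 from 0 to 0.141, and both are listed at 0 in 1 library. With F3'H these make 4 of the 10 genes below 0.5 FPKM in all 6 libraries. From transcript length and the step of low values, the FPKM of DFR stand for about 1.14 to 17.0 reads per library, those of LDOX for up to about 12.6 and those of UGT79B1 for up to about 5.61. For DFR, LDOX and UGT79B1 no difference was detectable at this depth, and calls on log2(FPKM + 1) were out of reach at such levels. The 95% interval of DFR was -0.17 to 0.49 for S1 against W and -0.51 to 0.14 for S3 against S1. FLS1 stood above DFR in every library, by 14.6 to 229 times.

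UGT75C1, which glucosylates anthocyanins, was better measured. It was at 1.83 and 2.24 FPKM in W, 0.761 and 0.808 at S1, and 1.42 and 0.903 at S3. W was above all stress libraries, and S3 above S1. No comparison passed the criteria on log2(FPKM + 1), where S1 minus W was -0.76 (SE 0.15, adjusted p = 0.00931) and S3 minus W -0.50 (adjusted p = 0.0354). With a pseudocount of 0.1 the S1 difference was -1.27 and was called (adjusted p = 0.0127), as it was with the fold taken as the ratio of mean FPKM, 2.59-fold lower.

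TT19, the glutathione transferase of anthocyanin transport, was highest in S3. Its FPKM was 0.467 and 1.02 in W, 0.321 and 0.389 at S1, and 1.74 and 1.97 at S3. The 3 conditions did not overlap. The S3 mean was 5.23-fold that in S1 in FPKM and 1.08 higher on the log2(FPKM + 1) scale (SE 0.16, adjusted p = 0.00883). That call was lost without any 1 of the S1 or S3 libraries, with adjusted p from 0.0572 to 0.0745 at log2 differences of 1.02 to 1.13, so it rests on both replicates of each. It was also lost with a filter of 1 FPKM, which raised the expression limit above its mean. S3 minus W was 0.73 (adjusted p = 0.0144) and was called with a pseudocount of 0.1 (1.29, adjusted p = 0.0285) and with the fold taken as the ratio of mean FPKM, 2.49-fold higher.

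**Figure D2:**
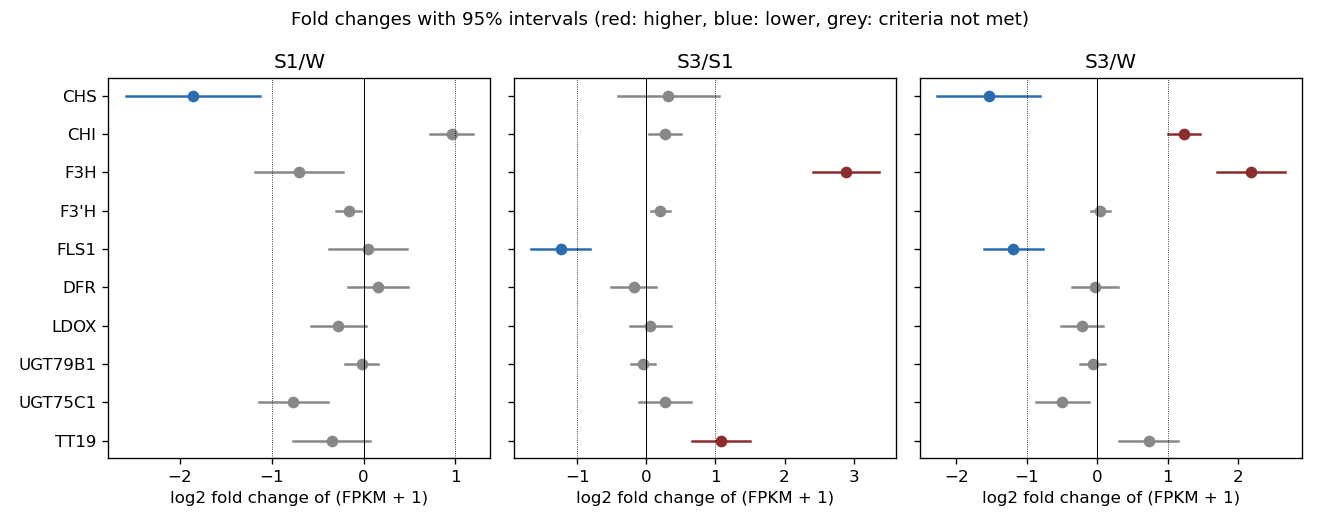
Log2 fold changes of (FPKM + 1) with 95% intervals for the 10 genes in the 3 comparisons; red marks called rises, blue called falls, grey the rest, and dotted lines the fold-change criterion of 1. F3H lies at 2.89 in S3/S1 and CHS at -1.86 in S1/W.

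In all, 1 of the 10 genes was called lower and 0 higher in S1 against W, where 12.1% of all genes tested were called lower and 13.7% higher. At an unadjusted p under 0.05 in limma's test the counts were 1 higher (CHI) and 4 lower (CHS, F3H, F3'H and UGT75C1), against 30.6% and 28.5% of all genes. For S3 against S1, 2 were higher and 1 lower, against 5.55% and 6.71% of all genes. For S3 against W, 2 were higher and 2 lower, against 15.3% and 14.4%. The comparisons share libraries and are not independent of each other. Counted by replicates that did not overlap, 1 gene was above and 6 were below W at S1, against 38.8% and 36.1% of all genes. At S3, 6 were above S1 and 2 below it, against 33.1% and 33.4%, and 3 were above W and 4 below it, against 39.9% and 35.8%. The median log2 difference of the 10 genes was -0.22, 0.23 and -0.05 in the 3 comparisons, and that of all genes 0.00, 0.00 and 0.01.

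Written as the sign of S1/W followed by that of S3/S1, with = for a change not called, CHS was [-/=], F3H and TT19 were [=/+], FLS1 was [=/-] and the other 6 were [=/=]. Over all genes these classes held 9.69%, 2.89%, 2.23% and 69.0%. No member had a call in both comparisons. The summed FPKM of the 10 genes was 78.4 and 73.5 in W, 48.0 and 50.2 at S1, and 66.7 and 80.3 at S3. CHS had the highest FPKM of the 10 in both W libraries and CHI in the 4 stress libraries. CHI was followed in S3 by F3H and CHS, whose S3 libraries overlapped.

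The genes nearest to each member were sought among those whose mean reached 5 FPKM in some condition, by Euclidean distance between log2(FPKM + 1) profiles over the 6 libraries, each centred on its own mean. For F3H the nearest was RVE8 (AT3G09600), a MYB-like factor of the circadian clock, at a distance of 0.14. RVE8 was at 0.959 and 1.39 FPKM in W, 0.204 and 0.278 at S1, and 7.36 and 10.1 at S3, the same order of conditions as F3H. With a pseudocount of 0.1, however, RVE8 was no longer among the nearest 3, and 1 of the 3 genes was shared between both pseudocounts. The nearest to FLS1 were AT3G11590, SHV3 and the photorespiratory SHM1, each at 0.22, with 2 of 3 shared, and the nearest to CHS was AT3G48200 at 0.37, with 2 of 3 shared. The nearest to CHI was AT3G51890 at 0.11, with all 3 shared. None was shared for the other 6 members.

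The rest of the pathway was counted from lists of 42 other enzymes, of which 40 had a value above 0. In S1 against W, 9 were called higher and 4 lower, against 13.7% and 12.1% of all genes tested. In S3 against S1, 6 were higher and 2 lower, against 5.55% and 6.71%. In S3 against W these counts were 14 and 2, against 15.3% and 14.4%. The largest counts were in the phenylpropanoid entry, the 8 genes that convert phenylalanine to p-coumaroyl-CoA, with 4 higher and 1 lower in S1/W, 3 and 0 in S3/S1 and 5 and 1 in S3/W. PAL1, a phenylalanine ammonia-lyase, was at 26.7 and 23.3 FPKM in W, 84.2 and 76.3 at S1, and 84.9 and 130.3 at S3 (S1/W 1.64, adjusted p = 0.00259). C4H, cinnamate 4-hydroxylase, rose by 2.04 at the first stress (adjusted p = 0.000331). PAL1 and C4H were thus higher at the stress at which CHS was lower. The 1 gene of this list called lower there was PAL3, at 5.80 and 4.60 FPKM in W and 0.674 and 0.684 at S1 (-1.88, adjusted p = 0.000531). Among those not called in S1/W were 4CL1 (-0.03, adjusted p = 0.89) and 4CL3 (-1.03, adjusted p = 0.0833).

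**Figure D3:**
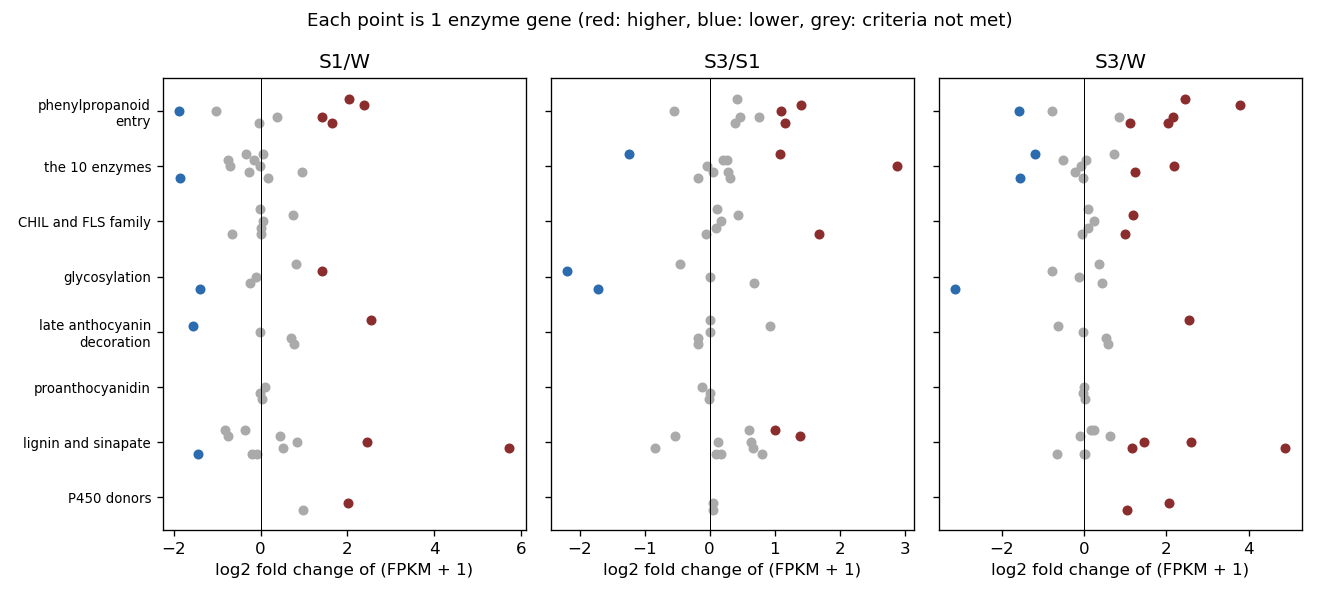
Log2 fold changes of (FPKM + 1) of the 10 genes and of the lists of other enzymes, each point 1 gene, for the 3 comparisons. Points of the phenylpropanoid entry lie mostly above 0, and those of the 10 genes on both sides of it.

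Close partners of the 10 genes moved in several ways. CHIL, a helper protein of CHS and CHI without isomerase activity, was at 4.51 and 5.09 FPKM in W, 2.73 and 2.54 at S1, and 9.78 and 11.5 at S3, and rose by 1.68 from S1 to S3 (adjusted p = 0.00174). It shares the class [=/+] with F3H. The flavonol rhamnosyltransferase UGT78D1 was at 23.1 and 27.0 FPKM in W, 10.0 and 7.79 at S1, and 1.82 and 2.16 at S3, and fell in both steps, by 1.40 (adjusted p = 0.00174) and 1.72 (adjusted p = 0.00246). UGT89C1, a flavonol 7-rhamnosyltransferase, had 4.63 and 4.96 FPKM in W, 12.9 and 15.9 at S1, and 2.22 and 2.52 at S3, a rise of 1.40 (adjusted p = 0.00119) and then a fall (-2.19, adjusted p = 0.00105). These were the 2 calls, both lower, among the 5 listed glycosylation genes in S3/S1, against 6.71% of all genes called lower. UGT78D2, the flavonoid 3-glucosyltransferase of the same list, was not called in any comparison and differed upward by 0.69 in S3/S1 (adjusted p = 0.0282). The FLS1 homologue FLS3 differed upward by 0.43 in S3/S1 (adjusted p = 0.0393), not called. It was called higher in S3/W (1.185, adjusted p = 0.000711), at 0.187 and 0.0771 FPKM in W and 1.35 and 1.82 at S3. The lignin and sinapate branch draws on the same p-coumaroyl-CoA. Of its 11 genes, 2 were higher and 1 lower in S1/W, and 4 higher and 0 lower in S3/W. The shares of all genes were 13.7% and 12.1% in S1/W, and 15.3% and 14.4% in S3/W. Both electron donors of the P450 enzymes, ATR1 and ATR2, were called higher in S3/W. Genes of late anthocyanin decoration gave 1 call higher and 1 lower of 5 in S1/W, namely BGLU10 (2.55, adjusted p = 0.000132) and SAT. The 3 seed coat proanthocyanidin genes with a value had 0 calls in all 3 comparisons, at a summed level of 0.217 to 0.469 FPKM.

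**Figure D4:**
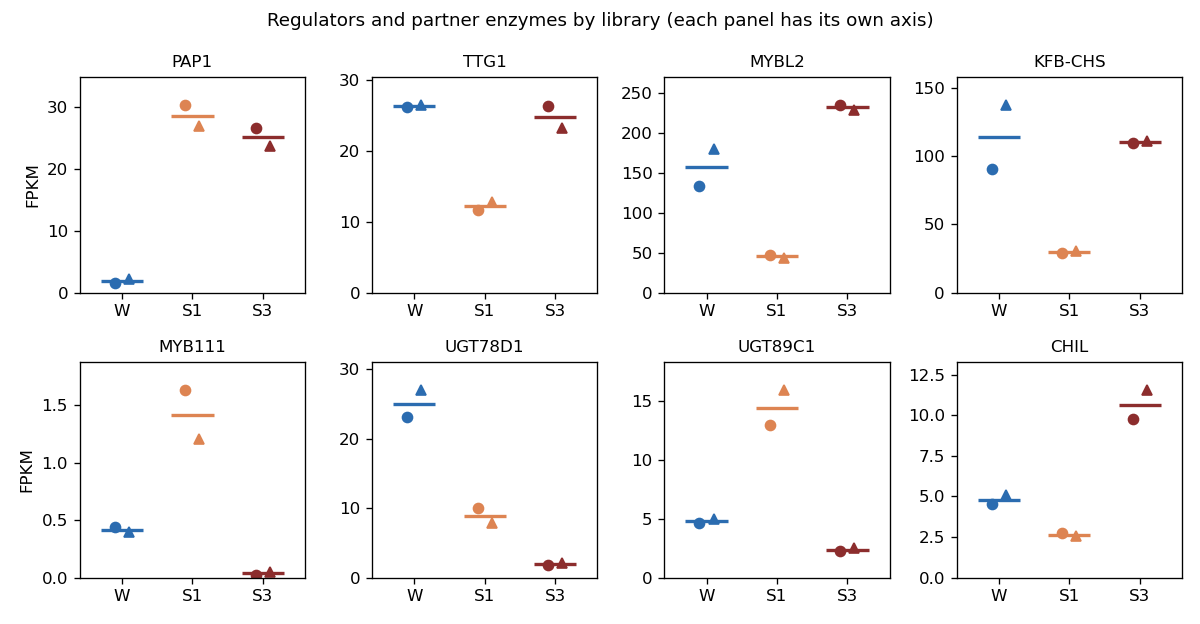
FPKM of 5 regulators and 3 partner enzymes by library, each panel with its own axis from 0; points are libraries and bars are means of 2. PAP1 is high in S1 and S3, while MYB111 and UGT89C1 are high in S1 and low in S3.

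Of 24 listed regulators a few are set beside the enzymes. Flavonol MYB factors had 1 call of 3, lower in S3/S1, against 6.71% of all genes. In S1/W, the activators of late genes had 1 higher and 1 lower of 8, and the repressors 4 higher and 5 lower of 11. Over all genes S1/W gave 13.7% higher and 12.1% lower. Of both light regulators HYH, a bZIP relative of HY5, was called lower in S1/W (-1.68, adjusted p = 0.00147) and in S3/W (-1.12, adjusted p = 0.00481). PAP1, the MYB activator of late anthocyanin genes, was at 1.57 and 2.21 FPKM in W, 30.2 and 26.9 at S1, and 26.6 and 23.6 at S3, 3.36 higher in S1 than in W on the log2 scale (adjusted p = 0.000147). In the same libraries DFR, LDOX and UGT79B1 were below 0.5 FPKM, while TT19 was at 0.321 and 0.389 FPKM at S1 and at 1.74 and 1.97 at S3. UGT75C1 was at 1.83 and 2.24 FPKM in W, 0.761 and 0.808 at S1, and 1.42 and 0.903 at S3. TTG1, the WD40 partner in the complex, was called lower in S1/W (-1.05, adjusted p = 0.000944) and stood at 26.2 and 26.4 FPKM in W, 11.6 and 12.8 at S1, and 26.3 and 23.2 at S3. MYB111, an activator of CHS, F3H and FLS1, was at 0.440 and 0.395 FPKM in W, 1.63 and 1.21 at S1, and 0.0250 and 0.0463 at S3, called lower in S3 than in S1 (-1.22, adjusted p = 0.00146), where FLS1 was lower and F3H higher. MYBL2, a repressor of DFR and TT8, fell and rose again, with W libraries at 134 and 179 FPKM, S1 libraries at 47.6 and 43.1, and S3 libraries at 235 and 229. KFB-CHS, an F-box protein that targets CHS protein, had the same class [-/+], which held 1.31% of all genes. Its values were 90.5 and 137 FPKM in W, 28.9 and 30.1 at S1, and 109.6 and 111 at S3. Other listed repressors differed from this class. LBD38 and KFB1 were [+/-], the opposite, and KFB39 and KFB50 were [+/=]. SPL9, LBD37 and LBD39 were [-/=], and KFB20 was [=/+]. How reads shared between close homologues, such as PAP1 and its neighbours or the FLS and UGT78D genes, were assigned is not given in the sources used here.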

How the data were processed

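RNA-Seq libraries of rosette leaves, 2 for each of W, S1 and S3, were analysed from the FPKM values per gene and replicate that the authors deposited. Per the submitters' processing notes these were made with CASAVA 1.8.2, TopHat and Cuffdiff on TAIR10. Per the file headers, the S1 and S3 values come from separate Cuffdiff runs. The other scalings rescale each library as a whole, so they cannot remove differences between runs that vary by gene. Read counts were not used here, and low FPKM values did not resolve into whole reads, so read numbers are approximate and no counting interval is given.

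The 24759 genes above 0 in at least 1 library were fitted on log2(FPKM + 1), all 6 libraries together and condition as the only term, with limma 3.58.1 (variance trend) in R 4.3.3 and Benjamini-Hochberg adjustment. Calls use the thresholds of the study, with the fold change on log2(FPKM + 1) in place of Cuffdiff's FPKM ratio, which makes the criterion stricter for low genes. P-values rest on the spread between the 2 samples of each condition, pooled over all conditions and moderated toward that of genes of similar level. The script was tested on simulated data. The 10 genes, the lists and the tests were chosen with earlier results of these data known. Named are all 10 members, listed genes called in at least 1 comparison, and the 3 nearest genes by profile. Uncalled listed genes are given values only as markers or in counts, apart from UGT78D2. Windows before gene starts were read from the TAIR10.1 genome with Python 3.11.15, by RefSeq annotation. Figures were drawn with matplotlib 3.10.9. Alternatives were another pseudocount, 2 filters, scalings, the fold-change criterion (also on the ratio of mean FPKM, chosen after seeing the data), a replicate block and leaving out each library. Samples were grouped by their labels, and 0 sample columns were left unused.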

Additional observations from a re-analysis of the deposited data

How the results depend on the processing

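No difference of the 10 genes that was called, in the main fit or under another setting, changed sign between them. Changes of sign among uncalled differences were not counted. The counts kept within 1.5 times under the scalings. With a pseudocount of 0.1, 1 member was called higher and 2 lower in S1/W. Without the fold-change criterion these counts were 1 and 3, those of the other enzymes were 16 and 7 in S1/W, 14 and 4 in S3/S1 and 5 lower in S3/W, and those of all genes were 6609 and 6152 in S1/W, 3773 and 3859 in S3/S1 and 7151 and 6470 in S3/W, against 3401 and 2999, 1374 and 1662, and 3794 and 3554 with it. With a fold criterion on the ratio of mean FPKM, chosen after seeing the data, 1 member (CHI) was higher and 2 (CHS and UGT75C1) lower in S1/W. With only genes of at least 1 FPKM in a condition, 1 member was higher in S3/S1: the 25th percentile of that smaller set is 3.12 FPKM, above the TT19 mean of 1.86 in S3, while its difference of 1.08 kept an adjusted p of 0.00439. Counts over all genes for the pseudocount of 0.1, the ratio criterion and this filter are not given here. Whether the members shifted more than all genes therefore cannot be read from these counts. With each library left out in turn, members called higher and lower ranged from 0 to 1 and from 1 to 1 in S1/W, 1 to 2 and 0 to 1 in S3/S1, and 2 to 2 and 1 to 2 in S3/W. For other enzymes they ranged from 9 to 10 and 4 to 5, 3 to 6 and 2 to 3, and 11 to 15 and 1 to 2, and for all genes from 3131 to 3484 and 2495 to 3211, 948 to 1334 and 1203 to 1606, and 3511 to 3887 and 3251 to 3747. The cause of these shifts was not tested.

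The labels do not say whether replicates of the same number were paired. Over 14373 genes, replicate differences correlated at 0.17 for W and S1, -0.01 for S1 and S3 and 0.02 for W and S3. These values do not settle whether samples were paired. A replicate block left the members at 0 higher and 1 lower in S1/W, 2 and 1 in S3/S1 and 2 and 2 in S3/W, and gave 3394 higher and 2985 lower over all genes in S1/W.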
